A study of Rattus norvegicus with 24 samples.

Results

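The genes described are the ligands and receptors of the 4 classical axon guidance systems: semaphorins with their plexin and neuropilin receptors, ephrins with Eph receptors, Slits with Robo receptors, and netrins with Unc5 receptors. They were found by symbol among the probe sets to which the platform table gives 1 gene symbol, with symbols that begin with Sema, Plxn, Efna, Efnb, Epha, Ephb, Slit1 to Slit3, Robo, Unc5, Ntn or that read Nrp1 or Nrp2; Slitrk and Ntng genes were left out. The rule found 96 probe sets for 57 of the 14217 genes with 1 symbol, and the brightest probe set over the 24 arrays stood for each gene. Unc50 and Unc5cl share the Unc5 letters but are no netrin receptors, and setting them aside left 55 genes: 17 semaphorins, 8 plexins, 2 neuropilins, 5 ephrins, 12 Eph receptors, 3 Slits, 3 Robos, 2 netrins and 3 Unc5 receptors. Of these, 33 had a mean signal at or above the median probe set and were tested among 9009 genes, and 22 lay under it. Epha7 was the dimmest member inside this limit, with a mean log2 signal of 6.93, and Epha6 the brightest outside it, with 6.75.

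The study compared models of attention deficit hyperactivity disorder in the rat, one genetic and one environmental. SHR, the spontaneously hypertensive rat, is an inbred strain and the genetic model, and WKY, the Wistar-Kyoto rat, is its control strain. SD-PCB rats are Sprague-Dawley rats exposed to polychlorinated biphenyls (PCB), with SD, unexposed Sprague-Dawley rats, as controls; the sources used here do not give the dose or time of exposure. All 28 rats were male and taken at postnatal day 55 to 65 (8 SHR, 8 WKY, 8 SD, 4 SD-PCB). Each strain group gave 1 array for each of 6 regions: the vermis of the cerebellum, the hippocampus, the prefrontal cortex, the dorsal and the ventral striatum, and a midbrain sample of substantia nigra and ventral tegmental area (VTA). The sources used here do not say whether an array holds RNA of 1 rat or of several, and there is no second array of any strain group and region.

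These families are known for steering growing axons during development. Secreted class 3 semaphorins bind neuropilins, which signal through A-type plexins, whereas the membrane-bound semaphorins of other classes bind plexins directly. Ephrins sit on one cell and Eph receptor tyrosine kinases on its neighbour, so that signalling needs contact and can run both ways; Slits repel axons through Robo receptors, and netrins repel them through Unc5 receptors. In the adult brain many of the same molecules are still made by neurons, glia and vessels, where they act on synapses, myelination and vessel walls.

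Nrp1 and Nrp2, the only neuropilins, were both higher in the hippocampus and lower in the vermis than in the other regions. Of the 55 genes, 41 had an entry in the RefSeq promoter table. Nrp1, Nrp2, Sema3c, Epha4, Efnb3 and Robo2 were looked up, and only Nrp1 had an entry that begins at the outer start of the gene. For that reason the start of Nrp1 is shown, and a link of this sequence to the regional pattern was not tested. The 250 bases before that start, at chr19:73256307-73256556 on the plus strand of GRCr8, are given from 5′ to 3′, with CCAAT, which reads ATTGG on the opposite strand, in capitals.
Nrp1: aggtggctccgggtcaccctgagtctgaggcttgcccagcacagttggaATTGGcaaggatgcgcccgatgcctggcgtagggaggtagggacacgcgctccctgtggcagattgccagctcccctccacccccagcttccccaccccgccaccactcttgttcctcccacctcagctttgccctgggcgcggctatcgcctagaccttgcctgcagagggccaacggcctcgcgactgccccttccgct
The stretch holds 14 CpG dinucleotides and is 66.4% G or C. CCAAT was searched on both strands and stands in 34.0% of 33469 RefSeq promoters of this length, and in 16 of the 41 members with an entry. The match is a description of these letters.

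Each value is a MAS5 signal, a brightness in arbitrary units, and the deposited arrays have nearly the same trimmed mean. Signals of different probe sets depend on the probes and were not compared with each other. The median signal of an array ran from 131 to 184 in SD, 132 to 178 in SHR, 109 to 153 in WKY and 89.0 to 126 in SD-PCB, and probe sets with signals under 50 made up at most 40.7% in SD-PCB against 25.4% in SD. Dissection labels were checked with region markers: Slc6a3, the dopamine transporter, was between 955 and 8411 in the substantia nigra/VTA and at most 122 elsewhere, although Th, which makes dopamine's precursor, was 217 to 3742 there and up to 249 elsewhere. The SD-PCB array of that region stood apart from the other 3: Th was 217 against 1367 to 3742, Slc6a3 955 against 5916 to 8411, and 5 midbrain dopamine markers summed to 8209 against 18148 to 25399. Without the arrays of that region 8 guidance genes in place of 9 were called in SD-PCB minus SD. Gabra6, a receptor subunit of cerebellar granule cells, was at least 17285 in the vermis and at most 2297 elsewhere, and Fibcd1 was at least 636 in the hippocampus and at most 185 elsewhere. Adora2a, a receptor of striatal neurons, was 3183 to 5043 in the dorsal striatum and up to 3428 in other arrays. The 5 striatal markers, Adora2a among them, summed to 20767 to 26347 in the dorsal and 14010 to 18456 in the ventral striatum. Their sum was at most 2256 in the remaining regions. Tbr1 and Rasgrf2, among the cortical markers tried, did not exceed 73.0 and 155 on any array, but the 4 markers of cortical pyramidal neurons on the array summed to 2654 to 3852 in the prefrontal cortex, 3913 to 5080 in the hippocampus and at most 1745 in the other 4 regions.

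Region accounted for most of the variation of the guidance genes. Over the 33 genes tested, the median share of the sum of squares of log2 signals was 63.6% for region, 16.3% for strain group and 15.5% for the remainder; over all 9009 genes tested the medians were 37.7%, 28.7% and 24.5%. The share of region exceeded that of strain group in 30 of 33 guidance genes, against 57.1% of all genes. The exceptions were Sema4f, Plxna3 and Ephb4. Shares of region were highest for Robo2 (95.4%), Sema5a (95.03%) and Epha4 (94.2%), and the share of strain group was highest for Sema4f (73.9%).

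**Figure D1:**
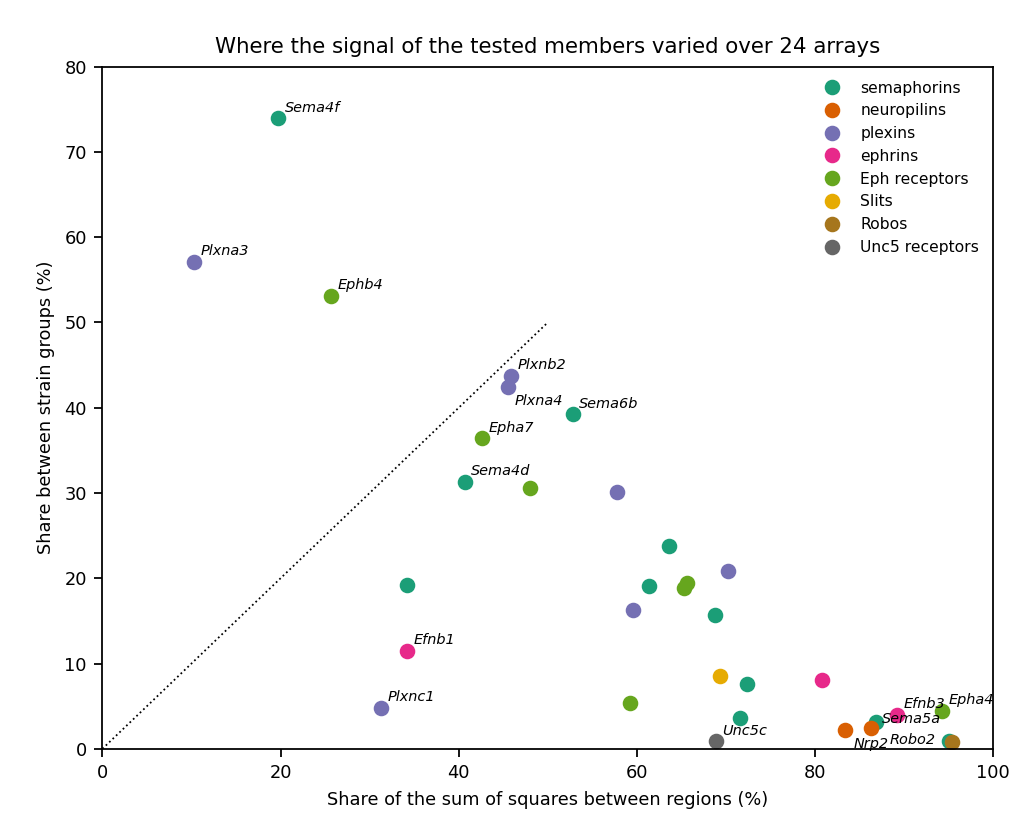
Share of the sum of squares of log2 signals that region (horizontal axis, percent) and strain group (vertical axis, percent) account for, with 1 point for each of the 33 guidance genes tested, coloured by family; the dotted line marks equal shares. Robo2, Sema5a and Epha4 lie at the far right with 94.2% to 95.4% for region, and Sema4f lies at the top with 73.9% for strain group.

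Each region was set against the mean of the other 5 in a limma fit over all probe sets, and a call needed both a Benjamini-Hochberg adjusted p under 0.05 and a difference of 1 or more in size on the log2 scale. Differences are given as log2 ± standard error (n = 4 arrays in the region, 1 per strain group, against 20). Counts are of genes by their brightest probe set. The 6 comparisons use the same arrays, so the values of a gene in them are not independent. The vermis had the most calls, 14 of 33 (2 higher and 12 lower), where 13.6% of all genes were called (3.95% higher and 9.6% lower). In the hippocampus 9 of 33 were called (7 higher, 2 lower), against 2.79% of all genes (1.99% higher, 0.799% lower), and in the dorsal striatum 6 of 33 (3 higher, 3 lower), against 5.13% (3.11% higher, 2.02% lower). The prefrontal cortex had 4 of 33, all higher, against 4.51% (2.68% higher, 1.83% lower). The substantia nigra/VTA had 2 of 33, both lower, against 6.34% (3.03% higher, 3.31% lower), and the ventral striatum 1 of 33, higher, against 2.15% (1.65% higher, 0.5% lower), both near the share of all genes. The ventral striatum had 2 calls without the SD-PCB arrays, and the substantia nigra/VTA had 4 without the WKY arrays and 3 without those of any other strain group. The median difference of the 33 genes was 0.39 in the hippocampus and -0.62 in the vermis, where the medians of all genes were 3.98e-05 and -0.072.

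**Figure D2:**
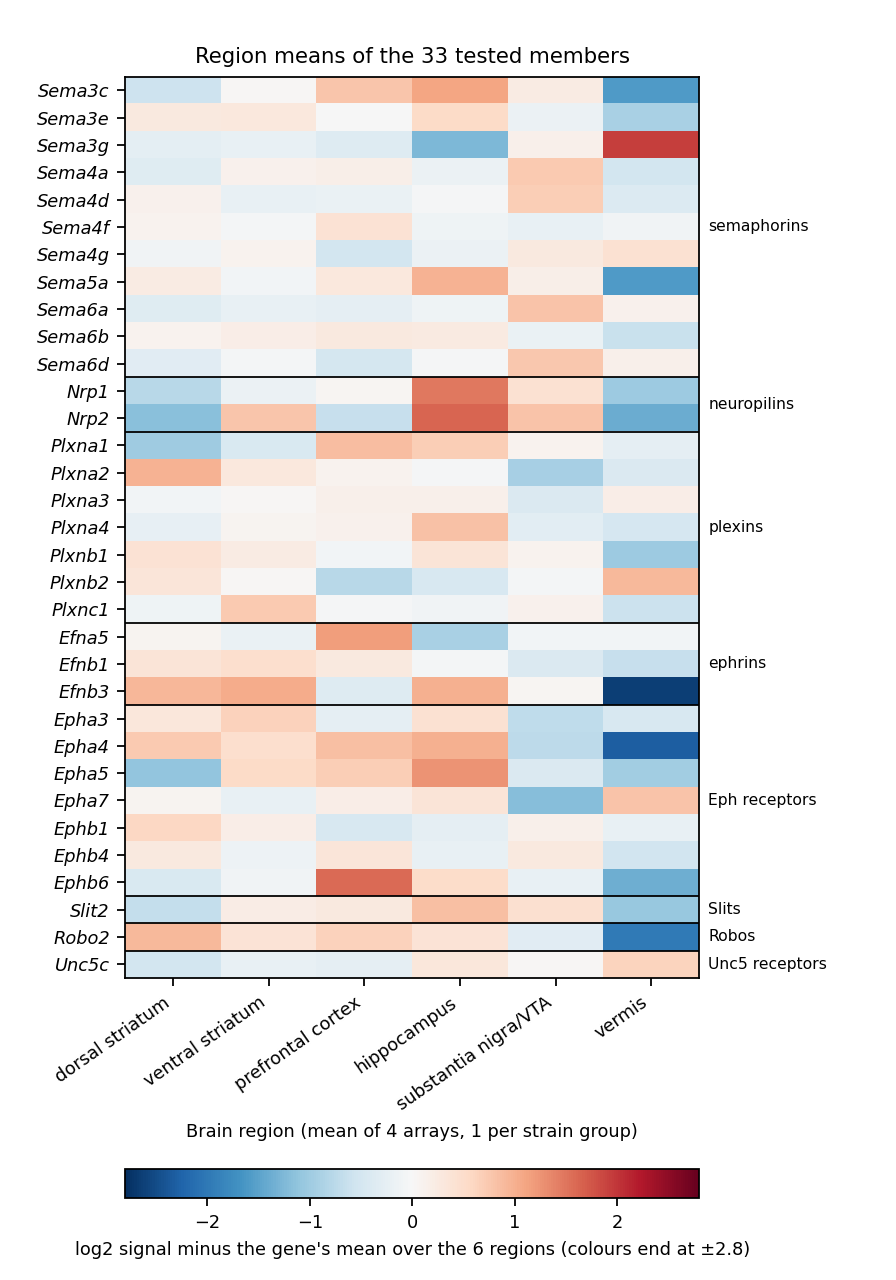
Mean log2 signal of the 4 arrays of each region (columns) minus the gene's mean over the 6 regions, for the 33 guidance genes tested (rows, grouped by family), with red for higher and blue for lower. The vermis column is mostly blue, darkest for Efnb3 and Epha4, with Sema3g as its strongest red cell, and the hippocampus column holds the strongest red cells of Nrp1 and Nrp2.

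Among the secreted semaphorins, Sema3c and Sema3g had opposite patterns. Sema3c is a class 3 semaphorin that binds both neuropilins. Its hippocampal signals were 2839 in SD, 4387 in SD-PCB, 1704 in SHR and 3474 in WKY, against 334 to 2716 in the other 20 arrays, and its signals in the vermis were 535 in SD, 531 in SD-PCB, 449.9 in SHR and 334 in WKY. The vermis arrays lay below all others except the WKY array of the dorsal striatum, at 528. The difference was 1.33 ± 0.184 (adjusted p = 1.98e-05) in the hippocampus and -1.89 ± 0.184 (adjusted p = 1.08e-08) in the vermis. Sema3g, known from the walls of arteries, was 488 in SD, 1984 in SD-PCB, 1828 in SHR and 1311 in WKY in the vermis and 157 in SD, 304 in SD-PCB, 100.1 in SHR and 64.6 in WKY in the hippocampus, with 64.6 to 517 outside the vermis. The SD signal in the vermis lay within the range of the other regions and the other 3 lay above it. Sema3g was higher in the vermis (difference 2.33 ± 0.265, adjusted p = 1.40e-07) and lower in the hippocampus (difference -1.51 ± 0.265, adjusted p = 3.11e-04). Markers of endothelium and pericytes summed to 4576 to 9176 in the vermis, the lowest range of the 6 regions, with 1 of 7 tested lower and none higher; their part in the Sema3g result was not tested.

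Sema3e, the class 3 semaphorin that binds plexin-D1 without a neuropilin, was lower in the vermis (-1.10 ± 0.161, adjusted p = 5.89e-06), where its signals were 363 in SD, 315 in SD-PCB, 368 in SHR and 391 in WKY. The membrane-bound Sema5a had the plainest separation of a ligand: 1038 in SD, 1065 in SD-PCB, 1260.2 in SHR and 1133 in WKY in the hippocampus, 167 in SD, 150.0 in SD-PCB, 180.0 in SHR and 281 in WKY in the vermis, and 463 to 773 in the 4 remaining regions. Neither region overlapped with any other. It was higher in the hippocampus (difference 1.17 ± 0.126, adjusted p = 7.00e-07) and lower in the vermis (difference -1.91 ± 0.126, adjusted p = 1.60e-11).

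The substantia nigra/VTA had no guidance gene called as higher, but 4 membrane-bound semaphorins passed the p-value threshold with differences just under 1, as did Nrp2 (0.96). Sema6a was 557 in SD, 1025 in SD-PCB, 489 in SHR and 746 in WKY there, against 201 to 528 elsewhere, a difference of 0.96 ± 0.158 (adjusted p = 5.26e-05). Sema6d reached 0.90 ± 0.134 (adjusted p = 1.54e-05), Sema4a 0.89 ± 0.169 (adjusted p = 2.82e-04) and Sema4d, a ligand of plexin-B1 made by oligodendrocytes among other cells, 0.82 ± 0.184 (adjusted p = 0.00137). All were higher in 4 of 4 strain groups. With each array centred on its median, 6 members were called in this region, 5 of them higher. Oligodendrocyte markers summed to 46364 to 89495 in the substantia nigra/VTA and to 30405 to 50478 in the prefrontal cortex. The sums were 47405 to 70644 in the dorsal and 43298 to 71826 in the ventral striatum. They were 46371 to 69360 in the hippocampus and 44264 to 61023 in the vermis, so the range of the substantia nigra/VTA overlapped with all others. The part of these markers in the semaphorin values was not tested. Here, as in every comparison of these tissue samples, fewer cells of a type and less RNA per cell cannot be told apart.

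Of the ephrins, Efna5 and Efnb3 were called. Efna5, an ephrin-A anchored in the outer membrane leaflet, was 1255 in SD, 1792 in SD-PCB, 1517 in SHR and 1544 in WKY in the prefrontal cortex, above the 235 to 1053 of all other arrays. In the hippocampus its signals were 508 in SD, 441 in SD-PCB, 235 in SHR and 321 in WKY. It was higher in the prefrontal cortex (difference 1.40 ± 0.153, adjusted p = 4.55e-07) and lower in the hippocampus (difference -1.08 ± 0.153, adjusted p = 2.68e-05); without the SHR arrays the latter was -0.92, under the limit of 1. Efnb3, a transmembrane ephrin-B that can bind EphA4, was 97.2 in SD, 84.4 in SD-PCB, 268 in SHR and 82.5 in WKY in the vermis and 409 to 1980.0 in the other regions, without overlap. The vermis was lower (difference -3.17 ± 0.217, adjusted p = 2.85e-11), the largest regional difference in size among the 33 genes tested. Efnb3 was higher in the ventral striatum (1.25 ± 0.217, adjusted p = 4.18e-04), the hippocampus (1.19 ± 0.217, adjusted p = 4.79e-04) and the dorsal striatum (1.10 ± 0.217, adjusted p = 6.10e-04), and its signals in the prefrontal cortex were 409 in SD, 836 in SD-PCB, 444 in SHR and 694 in WKY.

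Slit2, a secreted repellent and the only Slit tested, was lower in the vermis (difference -1.28 ± 0.230, adjusted p = 7.21e-05), with signals of 319.9 in SD, 240.0 in SD-PCB, 272 in SHR and 82.3 in WKY. In the hippocampus it was 941 in SD, 554 in SD-PCB, 709 in SHR and 914 in WKY; its difference of 0.998 ± 0.230 (adjusted p = 0.00482) was just under the limit of 1. Its receptor Robo2 was lower in the vermis as well, at 281 in SD, 179.9 in SD-PCB, 291 in SHR and 235 in WKY against 651 to 2050.1 elsewhere, with no overlap and a difference of -2.39 ± 0.133 (adjusted p = 7.62e-13). In the dorsal striatum Robo2 was 1623 in SD, 1879 in SD-PCB, 1701 in SHR and 2050.1 in WKY, higher (difference 1.08 ± 0.133, adjusted p = 1.81e-06).

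The neuropilins separated the hippocampus from the rest. Nrp1 was 2081 in SD, 2087 in SD-PCB, 1411 in SHR and 2570.5 in WKY in the hippocampus, all above the highest of the other arrays, 1362. Nrp2 was 1429 in SD, 1403 in SD-PCB, 2078 in SHR and 2156 in WKY there, also above the highest of the others, 1310.2. The differences were 1.78 ± 0.209 (adjusted p = 2.17e-06) for Nrp1 and 1.94 ± 0.245 (adjusted p = 5.63e-06) for Nrp2. In the vermis both were lower, Nrp1 (difference -1.22 ± 0.209, adjusted p = 4.28e-05) and Nrp2 (difference -1.67 ± 0.245, adjusted p = 6.00e-06). Ttr, the only 1 of 4 choroid plexus markers on the array that was tested, was higher in the hippocampus (3.90) and in the vermis (2.81), and 4 of 6 microglial markers were lower in the vermis; their part in the hippocampal and vermis results was not tested.

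Nrp2 was also the only guidance gene called between the dorsal and ventral striatum, where 0.322% of all genes were called (0.0444% higher and 0.278% lower in the dorsal part). Its signals were 496 in SD, 230.1 in SD-PCB, 172 in SHR and 202 in WKY in the dorsal and 929.5 in SD, 613 in SD-PCB, 1259 in SHR and 1226 in WKY in the ventral striatum, so the regions did not overlap. Nrp2 fell by 1.94 from the ventral to the dorsal striatum on the log2 scale (SE 0.317, adjusted p = 0.00314). Without the SHR arrays the adjusted p was 0.280, and without the WKY arrays 0.0923. Against all other regions the dorsal striatum was lower (difference -1.39 ± 0.245, adjusted p = 1.88e-04).

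**Figure D3:**
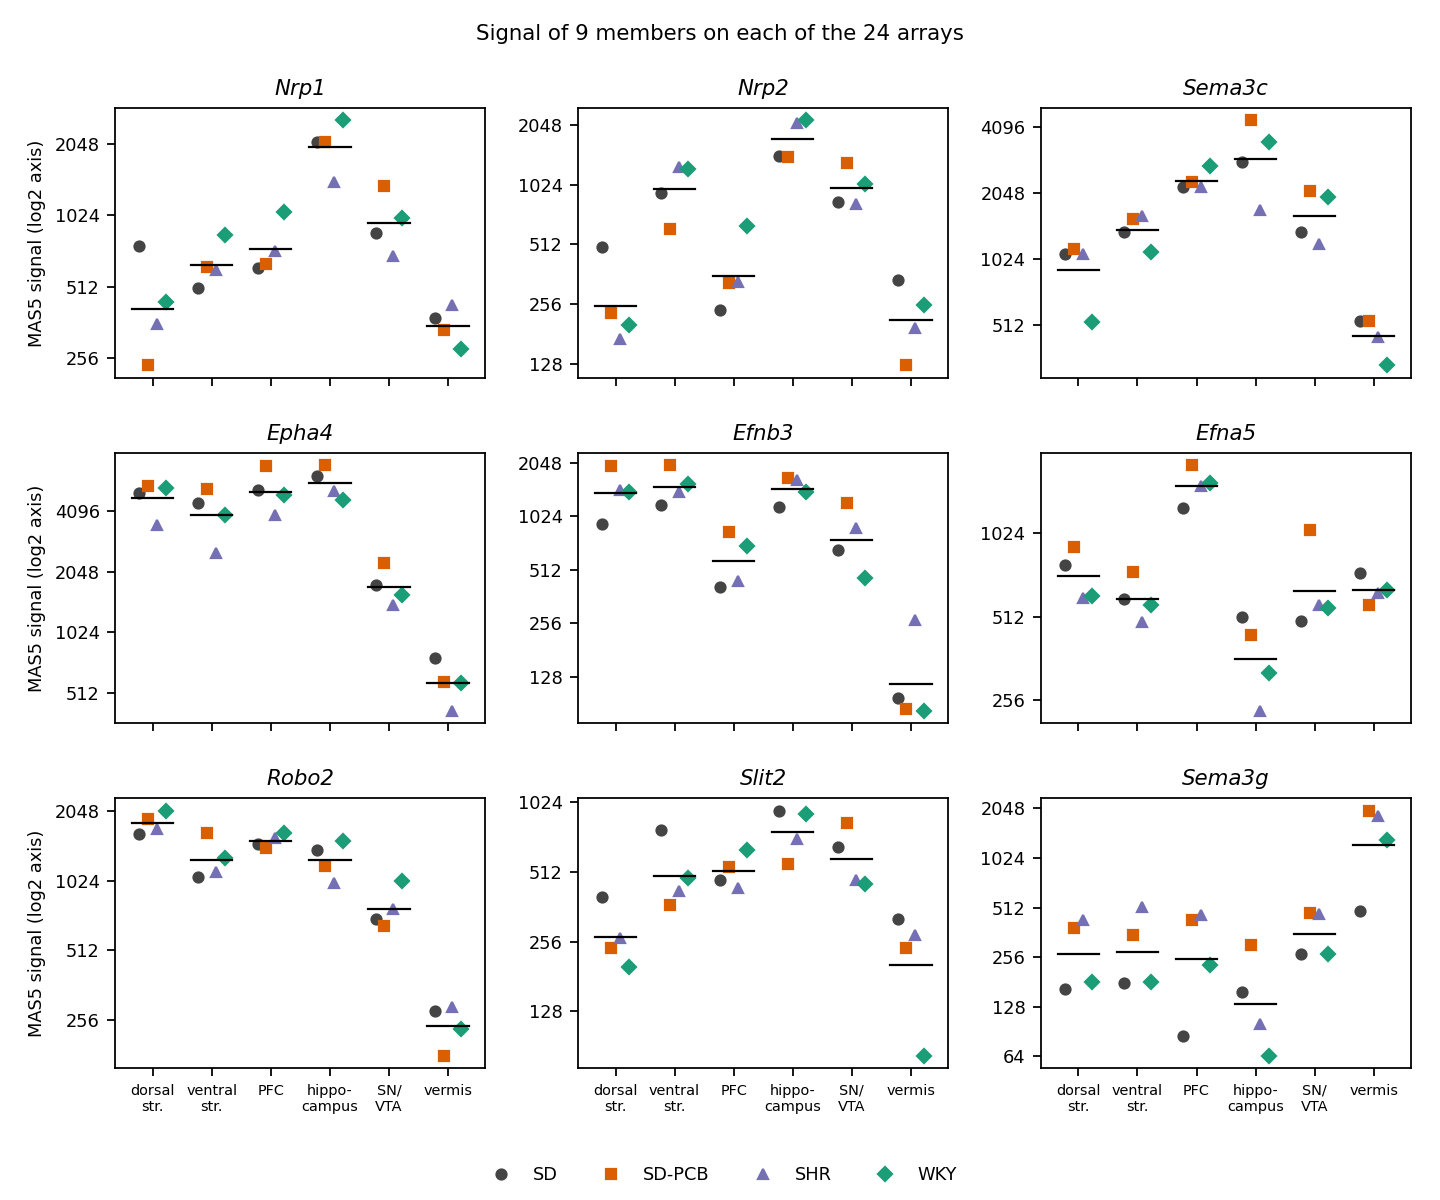
MAS5 signal (vertical axis, log2 scale) on each of the 24 arrays by region (horizontal axis) for 9 guidance genes, with 1 marker per strain group and a line at the mean of the 4 log2 values of a region. The 4 hippocampal arrays of Nrp1 (1411 to 2570.5) and Nrp2 (1403 to 2156) lie above all others, and the 4 vermis arrays of Efnb3 (82.5 to 268) lie below all others.

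Plexins, which carry the semaphorin signal into the cell, were called in different regions from member to member. Plxna1 was 568 in SD, 417 in SD-PCB, 815 in SHR and 654 in WKY in the prefrontal cortex and 247 in SD, 114 in SD-PCB, 167 in SHR and 155 in WKY in the dorsal striatum. It was higher in the former (difference 1.03 ± 0.167, adjusted p = 7.60e-05) and lower in the latter (difference -1.19 ± 0.167, adjusted p = 1.15e-05). Plxna2 was higher in the dorsal striatum, at 423 in SD, 272 in SD-PCB, 478 in SHR and 455 in WKY (difference 1.16 ± 0.249, adjusted p = 0.00141), and lower in the substantia nigra/VTA, at 156 in SD, 73.2 in SD-PCB, 132 in SHR and 84.9 in WKY (difference -1.11 ± 0.249, adjusted p = 0.00129). These arrays overlapped with those of other regions, and the difference in the substantia nigra/VTA was -0.85 with quantile normalization, -0.93 with each array centred on its median and -0.94 without the WKY arrays. Both other tested probe sets of Plxna2 were called as lower in the substantia nigra/VTA, at -1.82 and -2.11. In the dorsal striatum they were 0.956 and 0.961, under the limit of 1. Plxnb1, the Sema4d receptor, was lower in the vermis (difference -1.21 ± 0.145, adjusted p = 3.17e-07). Plxnb2, a plexin known from cerebellar granule cell precursors, was 257 in SD, 199 in SD-PCB, 364 in SHR and 179.7 in WKY in the vermis against 49.4 to 357 elsewhere. It was higher (difference 1.08 ± 0.224, adjusted p = 3.45e-04), and under 1 with quantile normalization (0.93), with each array centred on its median (0.76) or without the SD-PCB arrays (0.97). Plxna4 was higher in the hippocampus (difference 0.98 ± 0.154, adjusted p = 9.60e-05), under the limit of 1. Another tested probe set of Plxna4 was called as higher there (1.07).

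Among the 7 Eph receptors tested, those with a call in a region were Epha4, Ephb6, Epha5 and Epha7. Epha4, a receptor for ephrins of both classes, was 761 in SD, 580.3 in SD-PCB, 419.8 in SHR and 577 in WKY in the vermis, 1768 in SD, 2272 in SD-PCB, 1394 in SHR and 1570.2 in WKY in the substantia nigra/VTA and 6132 in SD, 6887 in SD-PCB, 5161 in SHR and 4643 in WKY in the hippocampus. The vermis arrays lay below all others and those of the substantia nigra/VTA came next, with the 4 forebrain regions between 2549 and 6887. Epha4 was lower in the vermis (difference -2.77 ± 0.100, adjusted p = 4.91e-16) and higher in the hippocampus (difference 1.19 ± 0.100, adjusted p = 2.32e-08) and the prefrontal cortex (difference 1.01 ± 0.100, adjusted p = 1.14e-07); the last was 0.96 without the SD-PCB arrays. All 3 other probe sets of Epha4 that were tested were lower in the vermis, with differences of -2.11, -1.24 and -2.23. In the prefrontal cortex they were 0.85, 0.87 and 0.95, under the limit of 1, and with array weights the brightest was at 0.99.

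Ephb6, an Eph receptor without kinase activity, was 389 in SD, 665 in SD-PCB, 1101 in SHR and 663 in WKY in the prefrontal cortex and 111 in SD, 19.6 in SD-PCB, 201 in SHR and 109.5 in WKY in the vermis. It was higher in the first (difference 1.90 ± 0.274, adjusted p = 1.91e-05) and lower in the second (difference -1.65 ± 0.274, adjusted p = 2.75e-05). The SD prefrontal array lay within the range of the other regions, 19.6 to 484. Epha5, a receptor for ephrin-A ligands, was 328 in SD, 377 in SD-PCB, 332 in SHR and 479 in WKY in the hippocampus and 143 in SD, 153 in SD-PCB, 10.0 in SHR and 114 in WKY in the dorsal striatum. It was higher in the hippocampus (difference 1.51 ± 0.366, adjusted p = 0.00735) and lower in the vermis (difference -1.18 ± 0.366, adjusted p = 0.0105). The lower value in the dorsal striatum, -1.33 ± 0.366 (adjusted p = 0.0113), was -0.70 without the SHR arrays (adjusted p = 0.110) and had an adjusted p of 0.0720 without the WKY arrays. Epha7 was lower in the substantia nigra/VTA, at 102 in SD, 64.7 in SD-PCB, 11.8 in SHR and 94.1 in WKY (difference -1.43 ± 0.299, adjusted p = 7.19e-04). Without the SHR arrays this difference was -0.93, under the limit of 1 in size.

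Unc5c, a netrin receptor known from cerebellar development and the only Unc5 gene tested, was 992 in SD, 621 in SD-PCB, 806 in SHR and 982 in WKY in the vermis. Its difference of 0.74 ± 0.167 (adjusted p = 8.29e-04) passed the p-value threshold with a size under 1. Both netrins on the array, Ntn1 and Ntn5, were among the 22 members under the limit on signal, with highest signals of 263 and 109. The other 20 were Efna1, Efna4, Epha2, Epha6, Epha8, Epha10, Ephb3, Plxnd1, Robo1, Robo3, Sema3a, Sema3b, Sema3d, Sema3f, Sema4b, Sema6c, Slit1, Slit3, Unc5a and Unc5b. In a fit with no filter, 8 of these 22 passed the same limits in at least 1 region, where 23.5% of the 5208 genes under the limit on signal did. Epha6 was higher in the hippocampus (difference 1.55 ± 0.372, adjusted p = 0.00972), with signals of 293 in SD, 240.0 in SD-PCB, 397 in SHR and 168 in WKY. Unc5b was lower in the hippocampus (difference -2.23 ± 0.503, adjusted p = 0.00545), with signals of 11.1 in SD, 30.3 in SD-PCB, 26.4 in SHR and 2.06 in WKY. Sema3f was also lower there (-1.20), Epha6 was lower in the substantia nigra/VTA (-1.46) and Ephb3 higher in the prefrontal cortex (2.12). In the vermis Slit3 (-1.79), Sema3b (-1.65) and Efna1 (-1.26) were lower, and Slit1 (1.48) was higher, opposite to Slit2. In the strain comparisons of that fit, 17.3% of the genes under the limit passed in SHR minus WKY, 34.0% in SD-PCB minus SD, 6.28% in SHR minus SD and 13.9% in WKY minus SD. Of the 22 members, Robo3, a Robo that promotes midline crossing, was higher in SHR than in WKY (2.16 ± 0.651, adjusted p = 0.0187) and lower in WKY than in SD (-2.21 ± 0.651, adjusted p = 0.0222). Sema3d (-1.52 ± 0.507, adjusted p = 0.0210), Epha6 (-1.16 ± 0.392, adjusted p = 0.0230), Epha8 (-1.75 ± 0.664, adjusted p = 0.0406) and Slit3 (-1.21 ± 0.468, adjusted p = 0.0439) were lower in SD-PCB than in SD, and Epha8 (-2.46 ± 0.664, adjusted p = 0.00993) and Sema3d (-1.63 ± 0.507, adjusted p = 0.0247) were also lower in SHR than in SD. Epha8 signals were 2.04 to 48.3 in SD-PCB and 12.7 to 142 in SD. Detection calls were not used here, so dim signals have no known background.

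Strain groups were compared in the same fit, with region as a term, so that a difference is the mean of 6 within-region differences ± SE (n = 6). All regions of 1 strain group came from 1 set of rats, so these p-values rest on the spread over regions rather than over animals, and they understate the uncertainty of a strain or exposure difference. SHR minus WKY addresses the genetic model. Here 9 of 33 guidance genes (27.3%) passed an adjusted p of 0.05, 6 higher and 3 lower, where 33.7% of all genes did (20.7% higher, 13.0% lower). In each strain comparison the share of guidance genes called lay under that of all genes. The median of the 33 was 0.076 and that of all genes 0.11. The count was 5 without the arrays of the dorsal striatum or without those of the ventral striatum, 2 with the median signal of each array as a covariate, and 15 with array weights. With each array centred on its median, which moved the median of all genes to -0.22, 2 guidance genes were higher and 11 lower, and 11.8% of all called genes were higher, against 61.3%.

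Of the ligands, 3 semaphorins were higher in SHR than in WKY in 6 of 6 regions. Sema4f, a membrane-bound semaphorin, was 352, 486 and 608 (lowest, median and highest of the 6 arrays) in SHR and 278, 309 and 437 in WKY. The ranges overlapped, but the within-region differences ran from 0.34 to 0.88, with a mean of 0.58 ± 0.133 (adjusted p = 0.00238). Sema4d was 489, 698 and 1268 in SHR and 372, 442 and 780.0 in WKY. Its difference was 0.61 ± 0.194 (adjusted p = 0.0201), and the adjusted p was between 0.0549 and 0.0901 when the arrays of the dorsal striatum, ventral striatum or prefrontal cortex were left out. Sema3g was 100.1, 465 and 1828 in SHR and 64.6, 205 and 1311 in WKY. It rose (difference 0.94 ± 0.280, adjusted p = 0.0138), with an adjusted p of 0.0560 without the dorsal striatum and 0.0696 without the ventral striatum. With each array centred on its median the adjusted p was 0.208 for Sema4f, 0.310 for Sema4d and 0.0837 for Sema3g, and with quantile normalization it was 0.0644 for Sema3g.

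Among the receptors, Plxnb2 and Ephb4 rose and Epha5 and Epha7 fell in 6 of 6 regions. Plxnb2 was 139, 232 and 364 in SHR and 65.9, 106 and 179.7 in WKY, a mean difference of 1.15 ± 0.236 (adjusted p = 0.00113). Ephb4, a receptor for ephrin-B2 known from veins, was 257, 364 and 509.7 in SHR and 119, 215 and 278 in WKY, a mean difference of 0.91 ± 0.204 (adjusted p = 0.00213). In both genes the SHR array was higher in every region although the ranges over regions overlapped. Epha5 was 10.0, 93.0 and 332 in SHR and 114, 277 and 479 in WKY, with within-region differences of -3.38 to -0.53 and a mean of -1.82 ± 0.386 (adjusted p = 0.00141). Epha7 was 11.8, 91.9 and 149 in SHR and 94.1, 133 and 253 in WKY, a mean of -1.17 ± 0.315 (adjusted p = 0.00744). The lowest SHR array was the dorsal striatum for Epha5, at 10.0, and the substantia nigra/VTA for Epha7, at 11.8.

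Plxnb1 was higher in SHR in 5 of 6 regions (0.48 ± 0.153, adjusted p = 0.0196) and Epha4 lower in 5 of 6 (-0.34 ± 0.106, adjusted p = 0.0178). Of the 3 other probe sets of Epha4, 2 were called as lower (-0.82 and -0.86) and 1 was not called (0.16). Markers of vessels and of meninges moved with this comparison: 6 of 7 endothelial and pericyte markers and 8 of 9 meningeal and fibroblast markers were higher in SHR, with none lower and medians of 1.07 and 1.41. The summed signals of the vessel list were 7987 to 15342 in SHR and 4576 to 11495 in WKY, and those of the meningeal list 4381 to 21709 and 2459 to 7782. Microglial markers were higher for 4 of 6. Hbb, the 1 blood marker tested, was higher (1.71), and the 2 blood markers on the array summed to 4705 to 10917 in SHR and 1232 to 3363 in WKY, without overlap. None of these markers was listed at 0, and their part in the Sema3g, Ephb4 and plexin results was not tested.

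**Figure D4:**
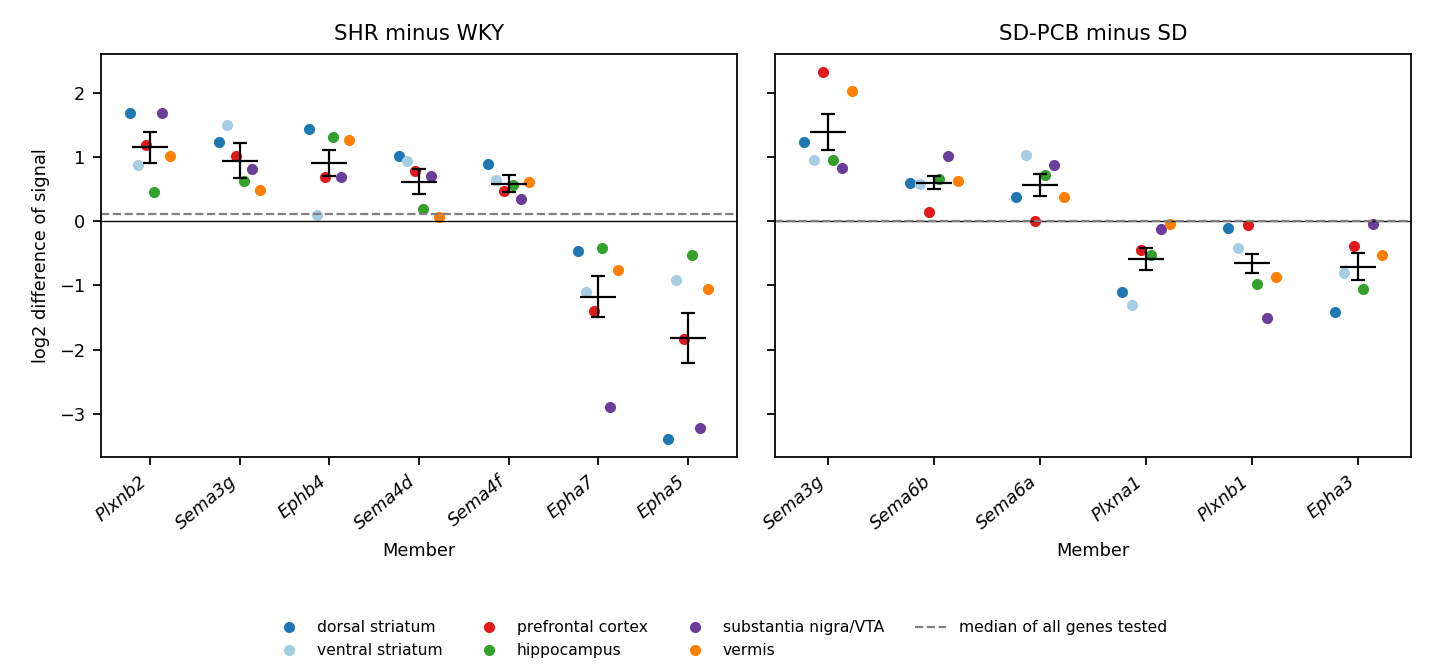
Within-region log2 differences (vertical axis) of the guidance genes called with 1 sign in all 6 regions (horizontal axis), in SHR minus WKY (left) and SD-PCB minus SD (right), with 1 coloured point per region, a black bar at the mean of the 6 with its standard error from limma, and a dashed line at the median of all genes tested. Epha5 and Epha7 lie below 0 in all 6 regions of SHR minus WKY and Sema3g lies above 0 in all 6 regions of both comparisons, while Plxna1, Plxnb1 and Epha3 move to 0.13, 0.067 and 0.017 in SD-PCB minus SD with each array centred on its median.

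SD-PCB minus SD addresses the environmental model. Again 9 of 33 guidance genes passed, 4 higher and 5 lower, where 28.3% of all genes did (14.8% higher, 13.5% lower). The medians were -0.062 for the 33 and 0.0032 for all genes. This comparison depends on the scaling: with each array centred on its median, which moved the median of all genes to 0.73, 19 of 33 were higher and none lower, and 98.6% of all called genes were higher, against 52.3%. With each array centred on the median of the probe sets tested, 4 were higher and 6 lower. With the median signal of each array as a covariate limma called none of 33, with 5 at an unadjusted p under 0.05. Array medians were 89.0 to 126 in SD-PCB and 131 to 184 in SD, without overlap. That covariate therefore cannot be separated from the strain group, and the lack of calls under it decides nothing. The values that follow are those of the deposited scaling unless stated.

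The 3 semaphorins that were higher in 6 of 6 regions were Sema3g, Sema6b and Sema6a. Sema3g was 304, 409 and 1984 (lowest, median and highest) in SD-PCB and 85.5, 172 and 488 in SD. The SD-PCB array was higher in every region, with within-region differences of 0.82 to 2.32 and a mean of 1.38 ± 0.280 (adjusted p = 6.96e-04). Leaving out the arrays of any 1 region gave 1.19 to 1.49, called each time. Sema6b, which binds A-type plexins, was 1141, 1717 and 1835 in SD-PCB and 736, 1179 and 1492 in SD, a mean of 0.60 ± 0.104 (adjusted p = 1.56e-04). Sema6a was 323, 468 and 1025 in SD-PCB and 201, 321 and 557 in SD, a mean of 0.56 ± 0.167 (adjusted p = 0.0128). Another probe set of Sema6a went the other way, with a difference of -0.73 (adjusted p = 0.00626), so the direction of Sema6a depends on the probe set. Efnb3 was higher in 5 of 6 regions (0.68 ± 0.228, adjusted p = 0.0260), with the vermis as the exception.

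Plexins were the family with the most falls, 4 of 7 tested, where 13.5% of all genes were called as lower. However, with each array centred on its median Plxna1 (0.13), Plxna4 (0.27) and Plxnb1 (0.067) turned to values above 0. These lay below the all-gene median of 0.73. Plxnb1 was 309, 829 and 1097 in SD-PCB and 565, 1177 and 1626 in SD. The SD-PCB array was lower in 6 of 6 regions, with differences of -1.51 to -0.067 and a mean of -0.66 ± 0.153 (adjusted p = 0.00235). Plxna1 was 114, 253 and 417 in SD-PCB and 247, 296 and 568 in SD, with a mean of -0.59 ± 0.176 (adjusted p = 0.0130) and the same sign in 6 of 6 regions; the adjusted p was 0.0905 without the ventral striatum, 0.183 with quantile normalization and 0.0702 in a fit on SD-PCB and SD alone. Plxna3 (-1.003 ± 0.268, adjusted p = 0.00661) and Plxna4 (-0.45 ± 0.162, adjusted p = 0.0368) were lower in 5 of 6 regions. A second probe set of Plxna4 was lower too, at -0.58, and 2 other probe sets of Plxna2, whose brightest was not called (-0.45), were called as lower (-0.93 and -0.91).

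Epha3 was the only Eph receptor called by its brightest probe set, at 92.8, 137 and 199.8 in SD-PCB and 96.1, 251 and 374 in SD. It was lower in 6 of 6 regions, with a mean of -0.71 ± 0.209 (adjusted p = 0.0125); the mean was 0.017 with each array centred on its median. The adjusted p was 0.0797, 0.0549 and 0.0587 without the dorsal striatum, ventral striatum and hippocampus, 0.418 with quantile normalization and 0.0610 in a fit on SD-PCB and SD alone. For Epha4, whose brightest probe set was not called (0.14), 2 other probe sets were called as higher (0.79 and 1.31). Vessel markers moved with this comparison, 5 of 7 higher and none lower with a median of 0.83, as summed signals of 9176 to 13035 in SD-PCB and 5984 to 14291 in SD. Of the glial markers, 4 of 7 for oligodendrocytes and 5 of 7 for astrocytes were lower; astrocyte sums were 42761 to 75704 in SD-PCB and 60357 to 81713 in SD. Hbb was higher (1.06), and the blood markers summed to 5763 to 14873 in SD-PCB and 2978 to 5675 in SD, without overlap. Their part in the Sema3g, plexin and Epha3 results was not tested.

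The difference between the models, SHR minus WKY less SD-PCB minus SD, was tested directly in the same fit, and these 2 comparisons share no arrays. It passed for 11 of 33 guidance genes, 7 higher and 4 lower, where 39.9% of all genes passed (23.0% higher, 16.8% lower). Quantile normalization gave 1 higher and 5 lower, and centring on array medians, with an all-gene median of -0.93, gave 20 lower and none higher. Of the genes with the smallest p-values, Sema6b differed (difference -0.84 ± 0.147, adjusted p = 1.51e-04), from -0.25 in the genetic and 0.60 in the environmental comparison. Plxnb1 differed (difference 1.14 ± 0.216, adjusted p = 3.26e-04), from 0.48 against -0.66, and Plxnb2 (difference 1.73 ± 0.334, adjusted p = 3.90e-04), from 1.15 against -0.58. Plxna3 differed (difference 1.60 ± 0.380, adjusted p = 0.00219) and Epha5 (difference -2.31 ± 0.546, adjusted p = 0.00210). The plexin values kept their sign under centring, at 0.080 for Plxnb1, 0.67 for Plxnb2 and 0.54 for Plxna3, but were not called there, nor were Plxnb2 (0.55) and Plxna3 (0.70) with quantile normalization. With the array median as a covariate limma called none of 33, with 5 at an unadjusted p under 0.05. Array medians of SD-PCB and SD did not overlap, so the lack of calls under that covariate decides nothing.

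Both inbred strains were also set against SD; these comparisons share the SD arrays with each other and with SD-PCB minus SD, and the SHR or WKY arrays with SHR minus WKY. In SHR minus SD 10 of 33 guidance genes passed, 6 higher and 4 lower, where 35.7% of all genes did (24.4% higher, 11.3% lower). Without the ventral striatum arrays the count was 6. Sema4f had the smallest adjusted p of the members, with SD arrays at 232, 246 and 320.3 and all 6 SHR arrays above the highest SD array, and a difference of 0.94 ± 0.133 (adjusted p = 2.15e-05). Plxnb2 (0.81 ± 0.236, adjusted p = 0.0115), Sema4d (0.69 ± 0.194, adjusted p = 0.00873) and Ephb6 (0.83 ± 0.289, adjusted p = 0.0310) were higher in 6 of 6 regions, the last with adjusted p up to 0.108 when a region was left out; Plxnb2 had 0.0504 without the ventral striatum. Sema6b was higher in 6 of 6 regions (0.47 ± 0.104, adjusted p = 0.00152) and Sema3g in 5 of 6 (1.23 ± 0.280, adjusted p = 0.00190). Epha7 was lower in 6 of 6 regions, at 102, 220.3 and 316 in SD (difference -1.49 ± 0.315, adjusted p = 0.00102). Epha4 (-0.54 ± 0.106, adjusted p = 5.49e-04) and Sema6d (-0.39 ± 0.141, adjusted p = 0.0352) were also lower in 6 of 6, but the 3 other probe sets of Epha4 were between -0.20 and 0.080 and not called. For Sema6d the adjusted p reached 0.126 when a region was left out and was 0.161 with each array centred on its median. Epha5 was lower in 4 of 6 regions (-1.14 ± 0.386, adjusted p = 0.0260). Of the markers, 5 of 7 for astrocytes were lower and 2 higher, with sums of 44894 to 59211 in SHR and 60357 to 81713 in SD, 4 of 7 for vessels were higher and 1 lower, and Hbb was higher (0.79); their part in these results was not tested.

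In WKY minus SD 3 of 33 passed, 2 higher and 1 lower, where 16.9% of all genes did (9.18% higher, 7.75% lower). Sema6b was 1102, 1854 and 2153 in WKY and 736, 1179 and 1492 in SD, higher in 6 of 6 regions (difference 0.71 ± 0.104, adjusted p = 4.58e-05). The SD array had the lowest Sema6b signal of the 4 strain groups in each of the 6 regions. Ephb4 was 119, 215 and 278 in WKY and 259, 352 and 370.3 in SD, lower in 6 of 6 regions (difference -0.80 ± 0.204, adjusted p = 0.00838); with each array centred on its median it was -0.37 (adjusted p = 0.141). Plxna4 was higher (difference 0.62 ± 0.162, adjusted p = 0.00987), but another of its probe sets was lower, at -0.74 (adjusted p = 0.0149). Markers moved with this comparison too: 8 of 9 for meninges, 3 of 7 for vessels, 4 of 7 for oligodendrocytes and 5 of 7 for astrocytes were lower and none higher, and Hbb was lower (-0.93). Meningeal sums were 2459 to 7782 in WKY and 4104 to 24705 in SD, and their part in the Ephb4 and Sema6b results was not tested. With each array centred on its median, which moved the all-gene median to 0.47, 16 of 33 were higher and none lower. With the array median as a covariate limma called none, with 3 at an unadjusted p under 0.05. Array medians were 109 to 153 in WKY and 131 to 184 in SD. The covariate thus runs largely with the strain group, and the lack of calls decides nothing. The 6 tested members Efnb1, Ephb1, Plxnc1, Sema4a, Sema4g and Unc5c were called in no comparison of regions or strain groups by their brightest probe set. Another probe set of Unc5c was called as lower in SD-PCB minus SD (-1.10, adjusted p = 6.38e-04) and in WKY minus SD (-0.72, adjusted p = 0.0261).

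The genes around the ligands and receptors were described from a list of 60 co-receptors, adaptors and cytoplasmic effectors, of which 56 were on the array and 44 were tested. In SHR minus WKY 4 were higher and 8 lower, 12 of 44 where 33.7% of all genes were called, among the latter the collapsin response mediator Dpysl2 (-0.19 ± 0.0697, adjusted p = 0.0364) and the adhesion co-receptors Nrcam (-0.65 ± 0.134, adjusted p = 0.00115) and Chl1 (-0.53 ± 0.142, adjusted p = 0.00746). In SD-PCB minus SD 5 were higher and 7 lower, 12 of 44 where 28.3% of all genes were called, with Neo1, a receptor of netrins and repulsive guidance molecules (-0.64 ± 0.188, adjusted p = 0.0129), Dpysl2 (-0.34) and Chl1 (-0.57) among the lower. Ngef, an exchange factor that EphA receptors activate, was the only one of the 44 called as higher in the dorsal striatum (2.25 ± 0.147, adjusted p = 1.40e-10) and in the ventral striatum (1.68 ± 0.147, adjusted p = 4.36e-08). Of all genes, 3.11% were called as higher in the dorsal and 1.65% in the ventral striatum. In the vermis 4 were higher, Srgap2 (1.30), Mical2 (1.22), Chn2 (2.32) and Tiam1 (1.51), and 5 lower, Dscam (-1.29), Dpysl5 (-1.14), Ngef (-2.94), Chn1 (-1.87) and Pak3 (-1.48), 9 of 44 where 13.6% of all genes were called. In the hippocampus Chn2, a GTPase-activating protein that acts downstream of Eph receptors, was the only one called, as lower (-1.15 ± 0.136, adjusted p = 2.52e-06). There 2.79% of all genes were called, 0.799% as lower. Chn2 and Chn1, its close relative, thus had opposite calls in the vermis.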

How the data were processed

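MAS5 signals of 24 Affymetrix Rat RAE 230 2.0 arrays were used, 1 per strain group and region. Per the submitters' processing notes the authors made them with MAS5; the version is not given in the sources used here. The deposited values are linear intensities with a trimmed mean (2% removed at each end) whose median over arrays was 500.2. Per the labels' protocols, RNA was taken with RNeasy (Qiagen) and amplified with Ovation (Nugen).

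Of 31099 probe sets, 57 controls were left out; of the rest 20826 had 1 gene symbol, 436 several and 9780 none. Log2(signal + 1) was fitted by limma 3.58.1 in R 4.3.3 on terms for region and strain group, with a trend on mean signal and 15 residual degrees of freedom. The fit covered the 15521 probe sets with a mean log2 signal at or above the median (a signal of 116), and p-values were two-sided and adjusted by Benjamini-Hochberg over them. The procedure was tested on simulated data. Arrays with 1 sample per group and region limit the precision by their number. Gene IDs of all 57 members matched RefSeq (GRCr8).

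Members and lists were chosen with earlier results of these data known. Named are the called members with the largest rises and falls, in strain comparisons those with 1 sign in all 6 regions, the 5 smallest adjusted p for the model difference, and for each region up to 5 highest and 3 lowest; other members were named after their values were seen. Alternatives covered scaling, pseudocount, filter, trend, array weights, an array covariate and leaving out the arrays of each region or strain group.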

Additional observations from a re-analysis of the deposited data

Results flagged for a closer look

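Values of the named genes were examined for arrays that stand apart from the others of their group (the 4 arrays of a region, or the 6 within-region differences of a strain comparison), by Dixon's 95% criterion. Chance marks about 1 in 20 groups, and 48 were examined. In the dorsal striatum the SHR array had the lowest Epha5 value, a log2 signal of 3.46 (signal 10.0), where the other 3 lay between 6.85 and 7.27. In the vermis the SHR array had the highest Efnb3 value, 8.07 (signal 268), where the other 3 lay between 6.38 and 6.62.

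The effect in the genetic model (SHR minus WKY) differed from that in the environmental model (SD-PCB minus SD) for 5 named genes in the limma contrast of the comparisons, with Benjamini-Hochberg adjusted p-values. Sema6b differed by -0.84 (-0.25 against 0.60, adjusted p = 1.51e-04), Plxnb1 by 1.14 (0.48 against -0.66, adjusted p = 3.26e-04), Plxnb2 by 1.73 (1.15 against -0.58, adjusted p = 3.90e-04), Epha5 by -2.31 (-1.82 against 0.49, adjusted p = 0.00210) and Plxna3 by 1.60 (0.60 against -1.003, adjusted p = 0.00219). For this contrast these genes were named by their smallest adjusted p in it, so the flag is no further evidence. Plxnb2 and Plxna3 were not called with quantile normalization, nor were Plxnb1, Plxnb2 and Plxna3 with each array centred on its median. With the array median as a covariate none of the 5 was called, but that covariate runs with the strain groups and cannot decide.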

How the results depend on the processing

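Over the named genes, 285 of the region values kept direction and call under the alternatives and 16 lost the call; of the strain values 366 kept both, 54 lost the call and 4 turned: in SD-PCB minus SD, Epha3 (0.017), Plxnb1 (0.067) and Plxna1 (0.13) with each array centred on its median, and Plxna1 (0.49) with the array median as a covariate. Centring takes 1 constant from all genes of an array, and it moved the median of all genes in SD-PCB minus SD to 0.73 from 0.0032. The 3 turns under centring are part of that shift. The cause of the turn under the covariate was not tested. Members called numbered 4 in SHR minus WKY, 3 in SD-PCB minus SD, 4 in SHR minus SD, 1 in WKY minus SD and 3 in the model difference with the upper 25% by mean signal alone, which tests fewer genes. There, of 14 members tested, 3, 2, 0 and 9 were called in the dorsal striatum, prefrontal cortex, substantia nigra/VTA and vermis. The 0 in the substantia nigra/VTA came from the limit on size. By limma 7 were at an unadjusted p under 0.05, and the smallest adjusted p was 3.86e-07. Quantile normalization gave 5 in SD-PCB minus SD, 6 in the model difference and 1 in the substantia nigra/VTA. Centring on array medians gave 19, 16, 20 and 6 in SD-PCB minus SD, WKY minus SD, the model difference and the substantia nigra/VTA. The array covariate gave 2 in SHR minus WKY and 0 in SD-PCB minus SD, WKY minus SD and the model difference (limma; 5, 3 and 5 at an unadjusted p under 0.05). Array medians differed between strain groups, so a call lost under this covariate cannot tell scaling from strain group. Array weights gave 15 in SHR minus WKY and 2 between the striata. Adjusted p alone, without the limit on size, gave 22 in the vermis, 14 in the hippocampus, 14 in the dorsal and 5 in the ventral striatum, 12 in the prefrontal cortex and 10 in the substantia nigra/VTA. Leaving out the arrays of 1 region gave 5 to 11 in SHR minus WKY, 6 to 9 in SD-PCB minus SD, 6 to 11 in SHR minus SD, 3 to 4 in WKY minus SD and 8 to 12 in the model difference. Leaving out 1 strain group gave 13 to 14, 9 to 10, 5 to 7, 1 to 2, 4 to 5 and 3 to 4 in these 6 regions, in the same order, and 0 to 1 between the striata. The members' median moved in SHR minus WKY to -0.26 (array medians), 0.21 (no filter) and -0.16 (upper 25%), in SD-PCB minus SD to 0.66 (array medians) and -0.33 (no filter), in SHR minus SD to 0.0083 (no filter) and -0.049 (upper 25%), and in WKY minus SD to 0.51 (array medians). Centring on array medians moved the share of called genes that were higher to 80.2% from 68.3% in SHR minus SD, 96.9% from 54.2% in WKY minus SD, 2.02% from 57.8% in the model difference, 12.04% from 29.2% in the vermis, 76.9% from 59.4% in the prefrontal cortex and 69.4% from 47.8% in the substantia nigra/VTA. Centring on the median of the probe sets tested, chosen after seeing the data, gave 10, 10, 9, 4 and 11 members in the 5 strain comparisons. The strain comparisons pair the arrays by region through the region term; no further pairing by replicate number was fitted, since the labels give none.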

Other observations

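Of the 6 guidance genes with another tested probe set (9 other probe sets), only Epha4 and Plxna2 were called in a region by their brightest probe set. For these genes each called value had the same sign in the other probe sets: 13 of 13 pairs, 8 of them called in both. The remaining genes gave no pair for the regions. In the 4 comparisons of strain groups 5 of 9 pairs had the same sign, 3 of them called in both, and 2 of the 9 were called in opposite directions (Sema6a in SD-PCB minus SD and Plxna4 in WKY minus SD). In the model difference 2 of 4 pairs had the same sign, both called, and Sema6a was called in opposite directions (-0.59 and 1.76). These counts cover only pairs whose brightest probe set was called. The other probe set of Sema6a was also called as higher in SHR minus WKY (1.03), where the brightest was at -0.029. In WKY minus SD it was called as lower (-0.86, brightest 0.13), and another probe set of Epha4 as higher (0.94, brightest -0.20). Another probe set of Plxna2 was called as lower in SHR minus SD (-0.96), where the brightest was at 0.39.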
